A study of Mus musculus with 2 samples.

Results

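The Id, Hes and Hey genes encode helix-loop-helix repressors that hold back differentiation in many lineages, the oligodendrocyte lineage among them. The set studied here is Id1, Id2, Id3, Id4, Hes1, Hes5, Hes6, Hey1, Hey2 and Heyl, 10 genes of the 18651 listed in either library. It was taken by gene symbol and no measured value entered the rule, but earlier results of these data were known when it was chosen. All 10 had reads in both libraries, and 9 reached a mean of at least 1 CPM (reads per 1000000 reads of the library), the level above which a gene is called measured here. Heyl did not. The RNA came from cultured mouse oligodendrocyte lineage cells, as 1 library labelled control with the genotype wild type and 1 library labelled Seh1cKO with the genotype mutant, a conditional knockout of Seh1l. Both are of strain C57BL/6 and were started from cortical precursor cells of pups at postnatal day 4 to 7, isolated by immunopanning on anti-GalC and then anti-O4 plates. The precursors were expanded with PDGF-AA, CNTF, bFGF and NT3, and then held for 2 days in 60 nM triiodothyronine (T3) without PDGF-AA, bFGF and NT3, the state that the series calls immature oligodendrocytes. The sources used here give neither the Cre line and the deleted exons nor the number of pups and any pooling.

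Id proteins carry a helix-loop-helix domain without the basic stretch that touches DNA. They pair with E proteins and so keep these from the lineage factors, such as Olig1 and Olig2, that need an E protein partner. Id genes are classical targets of BMP signalling through SMAD proteins. Hes and Hey proteins do bind DNA and recruit Groucho corepressors. Hes1, Hes5, Hey1, Hey2 and Heyl are transcribed when the cleaved Notch receptor joins the DNA-binding protein RBPJ, while Hes6 is known in the mouse as an antagonist of Hes1 that does not depend on Notch. In precursor cells Id2, Id4 and Hes5 are known to hold back myelin genes. Id1, Id3 and Hes5 are also expressed by astrocytes, and Id1 and Id3 by endothelial cells.

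The libraries held 20730124 (control) and 20599573 (Seh1cKO) assigned reads. Seh1l itself was at 32.1 CPM (control) against 18.5 CPM (Seh1cKO), 57.7% of the control level (95% interval 50.8 to 65.6%), so reads of the targeted gene remained. With 1 library per genotype no test of the genotype exists. Each interval is an exact 95% interval from the 2 read counts and covers counting error only, not the spread between cultures or animals. Xist was at 0.868 CPM (control) against 341 CPM (Seh1cKO), and the Y-linked Eif2s3y at 82.2 and 0.0485 CPM, so the 2 libraries differ in sex-linked expression as well as genotype, and these cannot be told apart.

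Of the 9 measured repressor genes, 7 were lower in the Seh1cKO library and 2 were higher, of which Hes6 had an interval that held equality. Across all 13758 measured genes 39.1% were lower and 60.9% higher by any amount. Hes5 and Id3 were at least 2-fold lower, against 1.29% of measured genes, and no repressor was at least 2-fold higher, against 2.86%. The members' median log2 ratio was -0.51, beside 0.07 over all measured genes, where a log2 ratio is the difference of log2(CPM + 1) values, Seh1cKO minus control. Whether a gene is within 2-fold is read on this scale throughout, which understates the difference of genes at a few CPM. Their single values ran from -1.94 for Hes5 to 0.84 for Hes1. In bulk RNA, fewer cells of a type and less RNA per cell cannot be told apart. Markers of astrocytes, which share several of these genes, summed to 13245 CPM (control) against 8783 CPM (Seh1cKO) over 14 genes, with a median log2 ratio of -0.23 and 4 of 13 measured genes higher, and their part in the result was not tested.

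**Figure D1:**
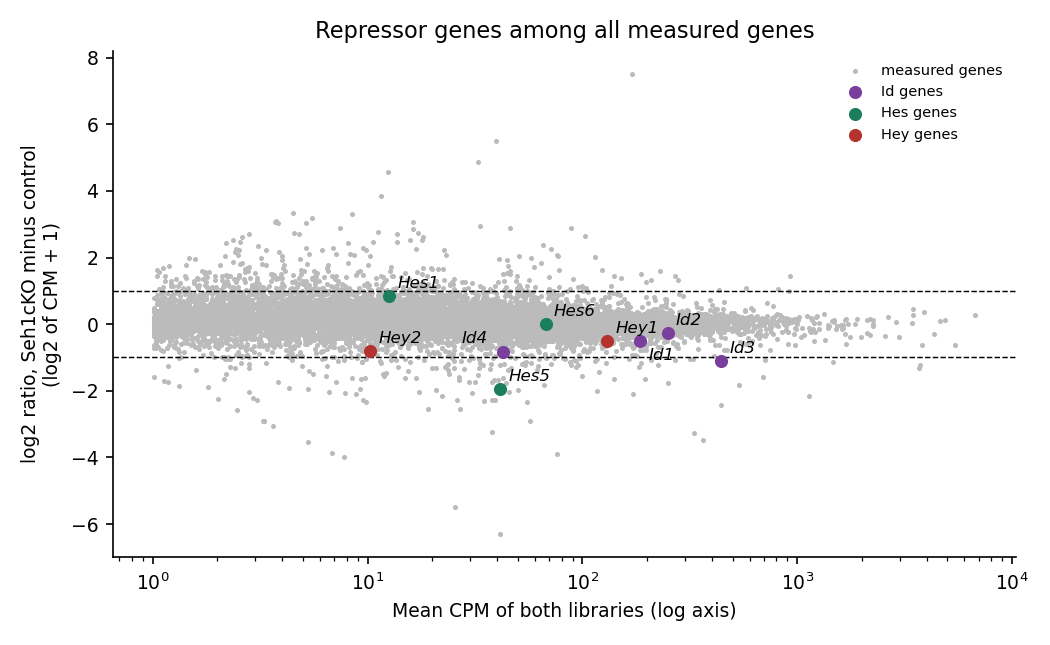
Each grey point is a measured gene, placed by its mean CPM (log axis) and by its log2 ratio of CPM + 1 between the 2 libraries; coloured points are the 9 measured Id, Hes and Hey genes and dashed lines mark 2-fold. Hes5 at -1.94 and Id3 at -1.12 lie below the lower line, and Hes1 at 0.84 stays under the upper line.

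By deposited FPKM, reads scaled by transcript length and library size, which allows levels of different genes to be compared, the Id genes were far more abundant than the Hes and Hey genes. The 4 Id genes summed to 1124 FPKM in control and 658 FPKM in Seh1cKO, a 1.71-fold lower sum. The 6 Hes and Hey genes summed to 184 and 127 FPKM, a 1.45-fold lower sum. The order in control, from the highest level, was Id3, Id1, Id2, Hey1, Hes5, Hes6, Id4, Hes1, Hey2 and Heyl. Of the neighbours in that order, Hes5 and Hes6 had overlapping counting intervals, and so did Hes1 and Hey2. The order in Seh1cKO was Id3, Id2, Id1, Hes6, Hey1, Id4, Hes5, Hes1, Hey2 and Heyl, with overlap between Id2 and Id1, between Hes6 and Hey1, and between Hes5 and Hes1. Hes5 thus stood beside Hes6 in control and beside Hes1 in the Seh1cKO library.

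**Figure D2:**
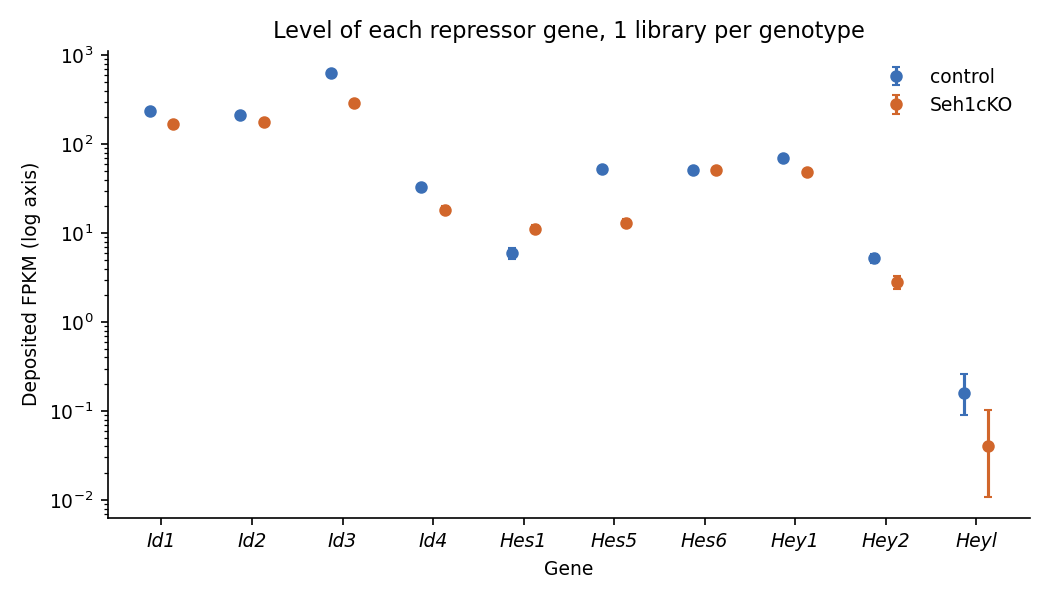
Deposited FPKM (log axis) of each of the 10 genes in the control (blue) and Seh1cKO (orange) library, 1 point per library, with bars for the exact 95% Poisson interval of the read count. Blue lies above orange for the 4 Id genes, Hes5 and the Hey genes, the points of Hes6 coincide at 50.9 and 51.1 FPKM, and orange lies above blue for Hes1.

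All 4 Id genes were lower in the Seh1cKO library, by unequal amounts. Id3 (chromosome 4, 136143822 to 136145392, plus strand) was the most abundant repressor of the set, with 12508 reads or 603 CPM in control and 5725 reads or 278 CPM in Seh1cKO. Its level was thus 2.17-fold lower (2.10 to 2.24), and its log2 ratio was the 139th lowest of the 13758 measured genes. Ranked by FPKM among all genes, Id3 held place 117 in control with 638 FPKM and place 264 in Seh1cKO with 294 FPKM. Id3 remained the leading Id gene, and its share of the summed Id FPKM was 56.8% in control and 44.7% in Seh1cKO.

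Id4 (chromosome 13, 48261116 to 48266028, plus strand) is the Id family member best known for holding precursor cells back from differentiation. It was the least abundant Id gene, at 55.0 CPM (control) against 30.5 CPM (Seh1cKO), 1.80-fold lower (1.63 to 1.99), and so stayed within 2-fold with a log2 ratio of -0.83. In the GENCODE M21 annotation its exons share 82 bases with an antisense RNA, A330033J07Rik, which had only 9.1 and 8.03 expected reads in the library tables, and 171 bases with Gm49291 on the opposite strand. The sources used here do not state whether strand was used in counting.

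Id1 (chromosome 2, 152736251 to 152737410, plus strand), which answers BMP signals in many cell types, was at 218 CPM (control) against 154 CPM (Seh1cKO), 1.42-fold lower (1.35 to 1.48). Id2 (chromosome 12, 25093799 to 25096092, minus strand), whose loss in mouse precursor cells is known to speed differentiation, was at 273 and 226 CPM, 1.21-fold lower (1.16 to 1.26). Id2 was thus the Id gene with the smallest difference, and it passed Id1 in rank by FPKM, at 177 against 168 FPKM in Seh1cKO and 214 against 239 FPKM in control. Within a library the Id3 to Id2 ratio needs no scaling. It was 2.99 in control and 1.66 in Seh1cKO by FPKM, a 1.80-fold difference from the 4 read counts (1.71 to 1.89).

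E proteins, the partners that Id proteins sequester, did not share the difference. Tcf4 was at 510 and 511 CPM, Tcf3 at 157 and 153 CPM, and Tcf12 at 128 and 149 CPM, given in the order control and Seh1cKO. The summed FPKM of the 4 Id genes over that of these 3 E protein genes was 7.62 in control and 4.36 in Seh1cKO.

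**Figure D3:**
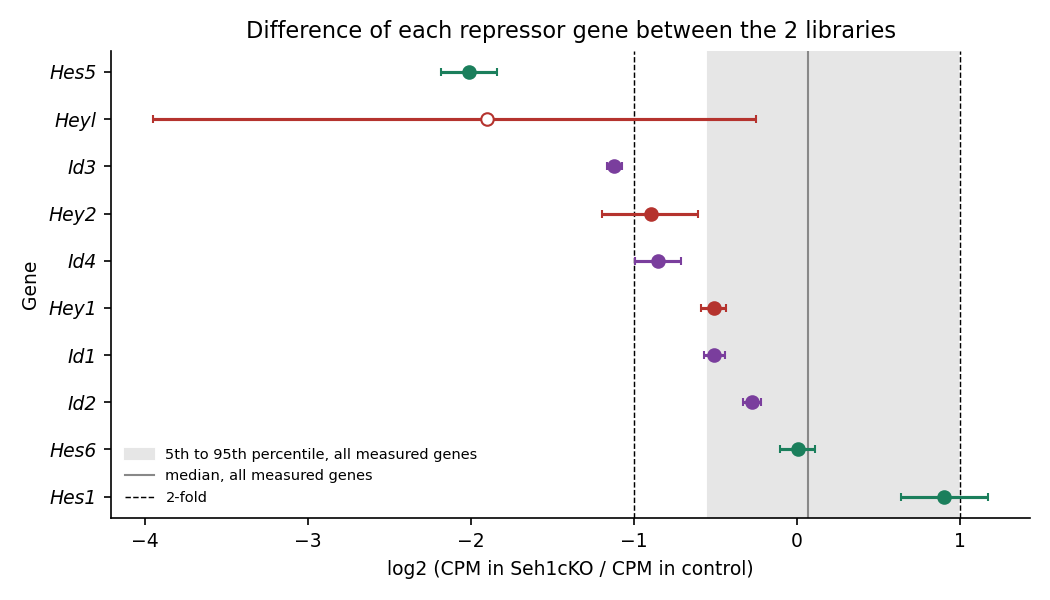
The log2 ratio of CPM, Seh1cKO over control and without a pseudocount, for the 10 genes in order of size, with bars for the exact 95% interval of counting error; the grey band spans the 5th to 95th percentile of all measured genes (-0.55 to 0.99), the grey line is their median of 0.07, and the open point is Heyl, under the 1 CPM level. Hes5, Id3, Hey2 and Id4 lie to the left of the band, as does the Heyl point.

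The 3 Hes genes went separate ways. Hes5 (chromosome 4, 154960626 to 154962372, plus strand), a Notch effector of neural progenitors and precursor cells, had 1372 reads or 66.2 CPM in control and 339 reads or 16.5 CPM in Seh1cKO. The difference was 4.02-fold lower (3.57 to 4.54), the 43rd lowest log2 ratio of all measured genes. Its exons share 433 bases with Gm20421 on the opposite strand in GENCODE M21, and reads of the 2 genes cannot be told apart without a strand setting; Gm20421 was not found under that symbol in the library tables.

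Hes1 (chromosome 16, 30065357 to 30067796, plus strand), the more widely expressed Notch effector, stood on the other side. It had 181 reads or 8.73 CPM in control and 337 reads or 16.4 CPM in Seh1cKO, 1.87-fold higher (1.56 to 2.26), within 2-fold at a log2 ratio of 0.84. Hes5 and Hes1 therefore differed 8.89-fold in FPKM in control and 1.18-fold in Seh1cKO. That is a 7.53-fold difference of the Hes5 to Hes1 ratio between libraries (6.03 to 9.41), a figure that no scaling of the libraries alters. Hes1 is expressed by many cell types, and fibroblast and mural cell markers, which were higher in the same library, summed to 310 CPM (control) against 771 CPM (Seh1cKO) over 13 genes; their part in the Hes1 difference was not tested.

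Hes6 (chromosome 1, 91411483 to 91414038, minus strand), the member that opposes Hes1, was at 67.3 CPM (control) against 67.6 CPM (Seh1cKO), from 1395 and 1393 reads. The ratio was 1.00 with an interval of 0.932 to 1.08, so a difference larger than these bounds is not seen at this depth, and its sign turned negative under each of 3 other scalings. Hes6 was the only measured repressor whose interval held equality. Its share of the summed FPKM of the Hes and Hey genes was 27.7% in control, where Hey1 led at 69.2 FPKM, and 40.3% in Seh1cKO, where Hey1 was at 48.6 FPKM and its counting interval overlapped that of Hes6.

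The Hey genes, which encode relatives of the Hes proteins and act below Notch in vessels and heart, were lower. Hey1 (chromosome 3, 8663359 to 8667038, minus strand), the most abundant of them, was at 154 CPM (control) against 108 CPM (Seh1cKO), a ratio of 0.703 (0.665 to 0.742). Hey2 (chromosome 10, 30832359 to 30842783, minus strand) was at 13.4 and 7.18 CPM, 1.86-fold lower (1.52 to 2.29). Heyl (chromosome 4, 123233556 to 123249870, plus strand), a Hey gene of vascular smooth muscle, had 15 reads (control) against 4 reads (Seh1cKO), a ratio of 0.268 with an interval of 0.0648 to 0.842, and is given as values only. Markers of endothelial cells, in which Hey1 and Hey2 are known to be active, summed to 28.3 CPM (control) against 63.1 CPM (Seh1cKO) over 10 genes. Of the 6 measured, 5 were higher and 1 was lower, beside 60.9% of all measured genes higher. Their part in the Hey1 and Hey2 values was not tested. Cldn5, a defining gene of brain endothelium, is named although it was not among the 3 most abundant of its list. It had no read in control and 1 read, 0.0485 CPM, in Seh1cKO. Of the most abundant genes of the list, given below, Slco1c1 and Cdh5 were higher in Seh1cKO and Kdr was lower.

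Promoter sequence shows which members carry the letters that RBPJ binds. RefSeq windows of the GRCm38.p6 build were found for 6 of the 10 genes, Id2, Id3, Id4, Hes5, Hes6 (2 starts) and Hey2, and not for Id1, Hes1, Hey1 and Heyl. The Hes5 window precedes a start at 154960923, which is also a GENCODE M21 transcript start, and lies wholly inside the longer RefSeq span of the gene given above. The window of the inner Hes6 start, 91413222, also lies inside its gene. All 250 bases of the Id3 window, 161 bases of the Id2 window and 18 bases of the Hey2 window lie in GENCODE M21 exons of these genes, so parts of them may be transcribed. The 250 bases before each start were searched on both strands for TGGGAA (the RBPJ core), GGCGCC (the core of a BMP response element), CACNAG (the N-box of Hes proteins) and CANNTG (the E-box), and no match in these windows overlapped another. TGGGAA, or TTCCCA on the other strand, was found 2 times before Hes5, 1 time before Hey2 and 1 time before Id4, and not before Id2, Id3 or Hes6. Of all 32851 RefSeq windows, 21.6% hold at least 1 such match and 2.77% hold 2 or more. The stretches are shown because Hes5 and Hey2 are the Notch effectors with a window, and Id4 carries the same letters; capitals mark the match, and each stretch reads 5′ to 3′ on the strand of the gene. They lie at chr4:154960685-154960714 and chr4:154960829-154960858 for Hes5 (plus strand), at chr10:30842973-30843002 for Hey2 (minus strand) and at chr13:48260866-48260888 for Id4 (plus strand).
Hes5 far match, 226 to 221 bases before the start: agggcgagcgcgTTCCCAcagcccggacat
Hes5 near match, 82 to 77 bases before the start: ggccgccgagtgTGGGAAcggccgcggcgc
Hey2 match, 207 to 202 bases before the start: tgcgcggtggcaTTCCCAcgcctctgccaa
Id4 match, 245 to 240 bases before the start: tgcccTTCCCAttggcccgagcg

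The BMP element core GGCGCC stood 1 time before Id2, 1 time before Id4 and 4 times before Hes5, and not before Id3, Hes6 or Hey2. Of all windows, 9.59% hold at least 1 such match and 1.43% hold 2 or more. This core is shown for both Id genes that carry it, from chr12:25096306-25096335 (minus strand) and chr13:48260956-48260985 (plus strand).
Id2 match, 231 to 226 bases before the start: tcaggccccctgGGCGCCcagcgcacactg
Id4 match, 148 to 143 bases before the start: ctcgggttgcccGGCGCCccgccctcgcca
The E-box was found before Id2, Hes5, Hes6 and Hey2, as in 66.2% of all windows, and the N-box before Id4 and at 1 of both Hes6 starts, as in 36.7% of all windows. The Id3 window held none of the 4 motifs, and since it lies in an annotated exon it may not be the promoter. A match describes the letters only, and binding was not measured.

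The Hes and Hey genes themselves had 3 measured members lower and Hes1 higher, while Hes6 had a ratio of 1.00 and an interval that held equality. Of all 13758 measured genes, 13186 were within 2-fold and 60.9% were higher by any amount. Of the Notch machinery above the Hes and Hey genes, all 11 receptor and ligand genes were within 2-fold, 8 higher and 3 lower. Their median log2 ratio was 0.16. The largest differences were in Dll4, a ligand of vessels, with 31 reads (control) and 76 reads (Seh1cKO), in the receptor Notch2 at 35.7 and 63.5 CPM, 1.78-fold higher (1.62 to 1.95), and in the receptor Notch4 with 31 and 63 reads. Notch1, chosen after seeing its value, had the most reads of the receptors, at 309 and 316 CPM. The lowest log2 ratio in the list was -0.40. Dll4 and Notch4 differ more than 2-fold by their reads alone and stay within 2-fold only on the log2(CPM + 1) scale, as do Maml3 and Hes7.

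The 25 genes of Notch processing and nuclear action were all within 2-fold too, 15 higher and 10 lower, with a median of 0.03. Beside these counts and those of the corepressors below, 13186 of all 13758 measured genes were within 2-fold and 60.9% were higher. Nrarp, itself a Notch target that feeds back on the pathway, stood at 35.1 CPM (control) against 23.9 CPM (Seh1cKO), with a ratio of 0.682 (0.607 to 0.766). The coactivator Maml3 was at 2.07 and 4.95 CPM and the fringe gene Mfng at 1.40 and 2.09 CPM, both low. Rbpj, chosen after seeing its value, stood at 79.9 and 77.5 CPM. The corepressor list of Groucho genes, histone deacetylases, Sin3a and Rcor1 had 6 of 11 genes higher and 5 lower, all within 2-fold, with a median of 0.09. Rcor1 had a ratio of 1.75 (1.35 to 2.29), Tle4 of 0.842 (0.765 to 0.927) and Hdac1 of 0.863 (0.813 to 0.916).

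The BMP pathway above the Id genes held larger differences in both directions. Of its 25 measured genes, 4 passed 2-fold upward, against 2.86% of all measured genes, and 2 passed it downward, against 1.29%. The other 19 stayed within it, and the median was 0.04. Bmp4, a ligand that drives precursors toward astrocytes and induces Id genes, was at 59.1 CPM (control) against 17.0 CPM (Seh1cKO). Nog, the secreted antagonist that binds BMP4, stood at 28.7 and 6.17 CPM, with a ratio of 0.215 (0.176 to 0.261). Bmp4 and Nog were thus both lower. Other ligands of the list went the opposite way to Bmp4. Bmp5 (0.917 and 3.40 CPM) and Bmp6 (7.28 and 21.3 CPM) were at least 2-fold higher. Bmp7 was higher within 2-fold, and Bmp2 had an interval that held equality. Eng, a coreceptor of endothelial cells, was at 2.94 and 13.2 CPM, and the endothelial receptor Acvrl1 at 1.06 and 4.95 CPM, both low. Higher in the same library were 5 of 6 measured endothelial markers and 10 of 11 fibroblast and mural markers, against 60.9% of measured genes. The part of these cell types in the Eng and Acvrl1 values was not tested.

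**Figure D4:**
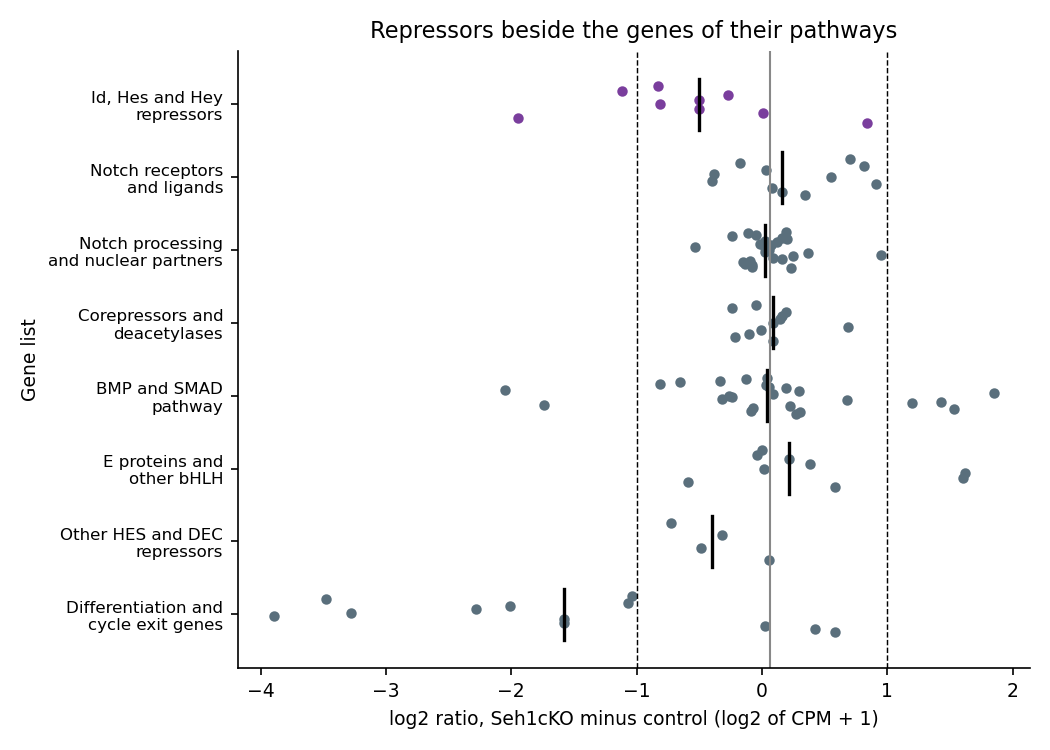
Log2 ratios (CPM + 1, Seh1cKO minus control) of every measured gene in the repressor set and in 7 lists around it, 1 point per gene, with the list median as a black bar, the median of all measured genes as a grey line and 2-fold as dashed lines. The repressor median of -0.51 lies left of the grey line at 0.07, the 2 Notch lists sit at 0.16 and 0.03, and the differentiation and cycle exit genes at -1.58.

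Among other helix-loop-helix genes, 7 of 9 measured were within 2-fold, and the median was 0.22. At least 2-fold higher were 2 of the 9, against 2.86% of all measured genes. Those 2 are neuronal factors, Neurod1 at 1.88 CPM (control) against 7.86 CPM (Seh1cKO) and Bhlhe22 at 4.05 and 14.4 CPM. Olig1 was at 864 and 873 CPM and Olig2 at 496 and 648 CPM. Of 6 further repressors of the HES and DEC type, 4 were measured, 3 of them lower and 1 higher, all within 2-fold. Their median was -0.40. Of all 13758 measured genes, 39.1% were lower and 13186 were within 2-fold. Hes7, the oscillating repressor of somites, was at 2.75 and 1.26 CPM, Bhlhe41 at 142 and 102 CPM, and Hes3 at 1.40 and 0.922 CPM.

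Differentiation and cell cycle exit genes, several of which these repressors are known to hold down, were lower in the same library as the repressors. Of 12 such genes, 9 passed 2-fold downward, against 1.29% of all measured genes, 3 stayed within it, and the median was -1.58. Mag was at 144 CPM (control) against 8.74 CPM (Seh1cKO), Mbp at 598 and 60.7 CPM and Mog at 5.74 and 0.388 CPM. The repressor with the largest difference, Hes5, was 4.02-fold lower, while the myelin genes Mag, Mbp and Mog had between 6.08% and 10.1% of their control CPM. These genes and the repressors come from the same 2 libraries, so their shared direction is 1 comparison.

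Genes of like level and like difference were sought for the repressors past 2-fold. Among 3306 genes with a mean CPM within 1.5-fold of that of Hes5, those with the closest log2 ratio over the 2 libraries were Rasgef1b at -1.93, S100b at -1.96 and Col20a1 at -2.04. For Id3, among 385 such genes, they were the F-box gene Fbxo2 at -1.04, the oligodendrocyte factor Sox10 at -1.03 and the astrocyte water channel Aqp4 at -0.96. S100b encodes a calcium-binding protein of astrocytes and of oligodendrocyte lineage cells. Likeness over 2 libraries rests on a single ratio per gene.

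Both libraries held markers of several cell types, at different levels. The oligodendrocyte lineage list was led in level by Bcas1 at 1858 and 417 CPM, Olig1, and Cnp at 1037 and 347 CPM, and no gene was at 0. Of its 14 genes, 9 were at least 2-fold lower, against 1.29% of all measured genes. The other 5 were higher within 2-fold, among them the precursor genes Pdgfra at 156 and 277 CPM, a 1.77-fold difference, and Ptprz1 at 488 and 657 CPM, and the lineage factor Olig2. In the astrocyte list, 9 of 13 measured genes were lower and 4 higher, and 1, Gfap, passed 2-fold. Gfap, the astrocyte filament gene, stood at 5200 and 2214 CPM, with a ratio of 0.426 (0.421 to 0.430), while Atp1b2 was at 2873 and 2228 CPM and Slc1a3 at 1227 and 1072 CPM. Aldh1l1 was higher at 414 and 483 CPM, as was Gja1 at 109 and 153 CPM. Without Gfap, left out after its value was seen, the other 13 genes summed to 8044 and 6569 CPM. Astrocyte genes were thus abundant in cultures labelled as oligodendrocytes.

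Of 11 measured fibroblast and mural genes 10 were higher in Seh1cKO, against 60.9% of all measured genes. At least 2-fold higher were 6 of them, against 2.86% of all measured genes. The list was led in level by Cspg4 (98.8 and 148 CPM), which precursor cells also express, Col1a1 (45.2 and 184 CPM) and Tagln (54.1 and 91.1 CPM). The epithelial and mesothelial genes summed to 10.7 and 204 CPM over 8 genes, with Krt8 at 0.772 and 78.7 CPM, Krt18 at 1.21 and 63.9 CPM and Msln at 0.0965 and 24.9 CPM; Cldn4 was at 0 in control and Upk3b at 0 in Seh1cKO. The most abundant endothelial genes were Slco1c1 (16.1 and 32.3 CPM), Cdh5 (1.01 and 13.8 CPM) and Kdr (5.35 and 4.95 CPM). Neuron markers summed to 460 and 492 CPM over 10 genes, with Map2 at 279 and 270 CPM, Tubb3 at 91.0 and 79.6 CPM and Stmn2 at 28.7 and 58.7 CPM. Microglia markers stayed low, at 9.07 and 19.1 CPM summed over 8 genes, with Cd68 (3.67 and 8.30 CPM), Tmem119 (0.868 and 4.17 CPM) and P2ry12 (1.21 and 1.65 CPM) the most abundant. Which cells carried the reads of the repressors is not known from bulk RNA.

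**Figure D5:**
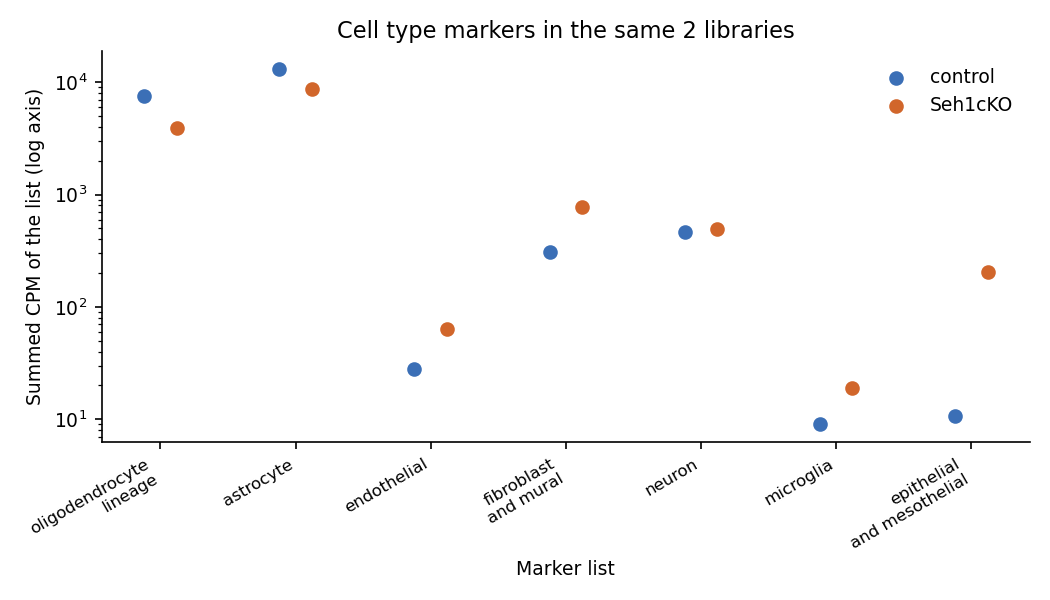
Summed CPM (log axis) of each list of cell type markers in the control (blue) and Seh1cKO (orange) library, 1 point per library. The oligodendrocyte lineage list (7510 and 3933 CPM) and the astrocyte list (13245 and 8783 CPM) have lower sums in Seh1cKO, although each holds genes that were higher, and the fibroblast and mural, endothelial and epithelial lists are higher.

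The authors' deposited table of 896 genes holds 2 of the 10 repressors. In the authors' deposited table Hes5 has a log2 fold change of -2.01 with a false discovery rate of 1.04e-143, and Id3 a log2 fold change of -1.12 with a false discovery rate listed as 0. Those p-values come from 1 library per group, so they hold no variation between cultures. The other 8 members are not in that table.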

How the data were processed

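For each of the 2 libraries the authors deposited, per the file headers, an expected count, a transcript length and an FPKM value per gene. HTSeq, StringTie and the mm10 build are listed, without their roles, in the submitters' processing notes, and neither aligner nor strand setting is named in the sources used here. A further deposited table gives, for 896 genes, the log2 fold change, its p-value and its false discovery rate, and names no test. Genes absent from a library table were set to 0.

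Expected counts were rounded and scaled to CPM by the library total. A gene was measured at a mean of at least 1 CPM, and the threshold was 2-fold on log2(CPM + 1). Folds of single genes are CPM ratios with exact 95% Clopper-Pearson intervals; levels carry exact Poisson intervals. Reads without molecular identifiers are not independent molecules. A count of 0 allows up to 3 counts, 0.145 CPM in control and 0.146 CPM in Seh1cKO. Of the members, Id4 alone had expected counts that are not whole (1139.9 and 628.97), and reads shared with other genes may have been split there.

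Symbols and coordinates come from RefSeq GRCm38.p6, the assembly behind mm10, which matched 18611 of 18651 identifiers. The members, lists and naming rule were chosen with earlier results of these data known. The rule named all members, up to 4 genes past 2-fold (or else the 3 largest differences) of each pathway list, the 3 most abundant of each marker list, and the 3 genes most alike to each member past 2-fold. Some genes that the rule names are not reported here. Alternatives were other pseudocounts, scalings (edgeR 4.0.16 for TMM), floors, unrounded counts and FPKM. Computation used Python 3.11.15, scipy 1.17.1 and R 4.3.3, and was tested on simulated data.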

Additional observations from a re-analysis of the deposited data

How the results depend on the processing

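Hes5 and Id3 were at least 2-fold lower, and no repressor at least 2-fold higher, under all 9 alternatives. Hes5 ranged from -2.03 to -1.73 and Id3 from -1.20 to -1.10 on the log2 scale; Hes1 stayed positive (0.64 to 0.90), and Id1, Id2, Id4, Hey1 and Hey2 stayed negative. Hes6 turned negative, leaving 1 member higher, with TMM, median-of-ratios and upper quartile scaling, whose factors shift log2 CPM by -0.08, -0.08 and -0.05, and log2(CPM + 1) by less in low genes. The members' median was -0.59 with TMM and -0.58 with the median of ratios. Among all genes, those at least 2-fold higher numbered 637 with a pseudocount of 0.1 CPM, 141 with 5 CPM, 228 on the FPKM scale and 228 with a floor of 5 CPM, against 394; those at least 2-fold lower numbered 116 with a pseudocount of 5 CPM and 173 on the FPKM scale, against 178. Smaller pseudocounts and lower floors let in genes of low counts by construction. No paired analysis was possible because each group holds 1 library, and for the same reason no library could be left out. Depth limits Heyl, at 15 and 4 reads, most.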

Other observations

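Further genes known as targets of BMP signalling through SMAD proteins had unequal values; they were named after their values were seen, and no test is possible with 1 library per genotype. The inhibitory Smad6 was at 12.3 CPM (control) against 6.55 CPM (Seh1cKO), a ratio of 0.533 (0.429 to 0.659), and Smad7 at 15.1 and 9.22 CPM, a ratio of 0.613 (0.509 to 0.736). Atoh8, a helix-loop-helix factor, stood at 57.6 and 37.9 CPM with a ratio of 0.657 (0.599 to 0.719). Bambi, a decoy receptor that BMP signals are known to induce, was at 19.7 and 18.7 CPM, with a ratio between 0.824 and 1.09. Other BMP ligands went the opposite way to Bmp4, with Bmp6 at 7.28 and 21.3 CPM and Bmp7 at 64.9 and 104 CPM. The receptor genes Bmpr1a (255 and 204 CPM) and Bmpr2 (115 and 95.8 CPM) were lower within 2-fold, and Smad1, Smad5 and Smad4 had ratios of 1.14, 1.02 and 1.04.

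The cycle exit genes were split. Cdkn1c, a cyclin-dependent kinase inhibitor, was at 40.3 CPM (control) against 12.9 CPM (Seh1cKO), a ratio of 0.319 (0.277 to 0.367), whereas Cdkn1a was at 335 and 450 CPM and Cdkn1b at 102 and 104 CPM.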
